A study of Mus musculus with 7 samples.

Results

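The CDK inhibitors and the regulators of senescence around them were followed in skin tumours of mice as a set of 10 genes: Cdkn1a, Cdkn1b, Cdkn1c, Cdkn2a, Cdkn2b, Cdkn2c, Trp53, Mdm2, Rb1 and Ccnd1. The genes were listed by name for their place in the cell cycle arrest pathway, by a rule that uses no measured value but was written with earlier results of these data known, and all 10 passed the filter on low counts, among 24433 genes tested of 55423 features. Tumours of 2 genotypes were compared. In Ivl:BRAFV600E mice, a tamoxifen-inducible Cre recombinase under the involucrin promoter (Ivl-CreERT2) turns on the oncogenic BRAF allele in the IVL+ population of the skin, and Ivl:BRAFV600E-SOX2LSL mice carry in addition a Rosa26 allele from which the same recombinase releases SOX2 and eGFP. Both groups therefore carry the Cre driver and the BRAF allele, no normal skin is part of the comparison, and recombination was induced by topical tamoxifen. The labels give an age of 7 to 10 weeks. For the age at induction the study's methods give a range that starts and ends later. The study's reporting summary gives a range for the start of experiments that begins earlier than that of the labels. Tumours labelled as cutaneous squamous cell carcinoma (cSCC) were taken whole at clinical endpoint, and their RNA was sequenced after depletion of ribosomal RNA. The labels name 4 Ivl:BRAFV600E and 3 Ivl:BRAFV600E-SOX2LSL tumours, and 3 of each could be matched to a library and were used, from 2 females and 1 male in the first group and 1 female and 2 males in the second. Every Ivl:BRAFV600E-SOX2LSL tumour was collected sooner after induction than every Ivl:BRAFV600E tumour, so time since induction and genotype cannot be told apart.

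CDK inhibitors stop the cell cycle by binding cyclin-dependent kinases. Those of the CIP/KIP family (Cdkn1a encoding p21, Cdkn1b encoding p27 and Cdkn1c encoding p57) bind a broad range of cyclin-CDK complexes, and those of the INK4 family (Cdkn2a encoding p16, Cdkn2b encoding p15 and Cdkn2c encoding p18) bind CDK4 and CDK6, the partners of the D cyclins. Cdkn2a also encodes p19Arf from a separate first exon, which holds back MDM2, the ubiquitin ligase that degrades p53. The retinoblastoma protein RB1 lies downstream of the kinases that these inhibitors block, and holds back E2F factors until cyclin D-dependent kinases phosphorylate it. Oncogenic BRAF is known to induce a senescence-like arrest in several cell types, with p16, p21 and p15 among the inhibitors engaged.

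The promoters of the INK4 and CIP/KIP genes with a split or multiple start are shown because the count table joins their transcripts in 1 row per gene. RefSeq promoter windows (GRCm38.p6) were found for 7 of the 10 genes, with 10 windows in all, and 3 genes, Cdkn1c, Rb1 and Ccnd1, are named only. The Cdkn1a gene lies on chromosome 17 at 29090976 to 29100727 (plus strand). The 250 bases before its upstream start, at chr17:29090729-29090978, hold 2 p53 half-sites, in capitals, which lie 73 to 64 and 51 to 42 bases before the RefSeq start. The window before the downstream start, at chr17:29093519-29093768, lies inside the gene and holds 0.
Cdkn1a upstream start: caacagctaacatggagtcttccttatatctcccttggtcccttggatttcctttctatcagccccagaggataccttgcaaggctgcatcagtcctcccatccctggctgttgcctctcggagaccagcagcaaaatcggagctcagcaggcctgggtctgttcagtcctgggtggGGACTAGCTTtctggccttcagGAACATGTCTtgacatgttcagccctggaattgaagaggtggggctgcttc
Cdkn1a downstream start: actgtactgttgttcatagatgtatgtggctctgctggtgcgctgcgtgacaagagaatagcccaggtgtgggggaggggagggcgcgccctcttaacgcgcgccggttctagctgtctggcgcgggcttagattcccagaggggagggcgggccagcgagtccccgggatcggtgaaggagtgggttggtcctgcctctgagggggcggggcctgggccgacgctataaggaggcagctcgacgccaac

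The Cdkn2a gene lies on chromosome 4 at 89274471 to 89294653 (minus strand). Its upstream start is that of the p19Arf transcript and its downstream start that of the p16 transcript. The windows before them, at chr4:89294620-89294869 and chr4:89282193-89282442, are written 5′ to 3′ on the minus strand and hold 0 p53 half-sites each, so no base is in capitals.
Cdkn2a upstream start (p19Arf): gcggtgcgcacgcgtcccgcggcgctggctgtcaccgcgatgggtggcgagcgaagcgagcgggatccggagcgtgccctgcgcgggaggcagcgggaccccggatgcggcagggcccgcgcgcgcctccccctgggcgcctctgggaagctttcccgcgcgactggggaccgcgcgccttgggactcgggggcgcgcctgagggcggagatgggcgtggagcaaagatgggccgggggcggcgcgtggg
Cdkn2a downstream start (p16): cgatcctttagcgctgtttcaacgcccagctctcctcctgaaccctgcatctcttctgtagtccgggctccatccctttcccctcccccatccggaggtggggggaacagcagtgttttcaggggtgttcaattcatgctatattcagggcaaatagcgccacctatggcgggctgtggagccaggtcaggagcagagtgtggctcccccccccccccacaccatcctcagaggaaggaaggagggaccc
Over all member windows, 3 of 10 held a p53 half-site (Cdkn1a upstream, Mdm2 and Trp53), against 7.13% of the 32851 RefSeq windows of the same length. The half-site reads as itself on the opposite strand, and a match was counted once. The SOX core ACAAT, searched on both strands, was found in 0 of 10 member windows and in 27.7% of all windows. The CCAAT box was found in 3 of 10 (Cdkn1b, Mdm2 and Trp53) and in 33.8% of all. A match of letters is a description of the window, not a bound site.

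Libraries held between 23565432 and 31152826 counts on genes. Levels are given as counts per 1000000 counts after TMM scaling (CPM), for which 3 counts, the smallest level taken as above 0, correspond to between 0.0839 and 0.143 CPM, a floor that covers counting error only. The transgene followed the labels, with Sox2 at 0.716, 0.508 and 0.238 CPM in the Ivl:BRAFV600E tumours and 182, 155 and 158 CPM in the Ivl:BRAFV600E-SOX2LSL tumours, and EGFP with no count in the former and 110 CPM or more in the latter. The 3 Ivl:BRAFV600E-SOX2LSL tumours did not have the same make-up. Tumour 1 had the lowest summed level of the 10 keratinocyte markers (15775 CPM, against 53481 and 48699 CPM in tumours 2 and 3 and 88363 to 135561 CPM in the Ivl:BRAFV600E tumours), a sum made up largely by the keratins Krt1, Krt10, Krt14 and Krt6a. The list did not move as one. Trp63, which marks basal keratinocytes, was at 281 CPM in tumour 1 and between 261 and 321 CPM in the other 5, the adhesion gene Cdh1 was highest of all 6 there (916 CPM, against 638 to 815 CPM), and the desmosomal Dsg3, at 911 CPM, lay above the 736 to 880 CPM of the Ivl:BRAFV600E tumours but was the lowest of its own group (1586 and 1356 CPM in tumours 2 and 3). The basal keratin Krt5 (2371 CPM, against 2562 to 3900 CPM) and Sfn (830 CPM, against 1531 to 3265 CPM) were lowest of all 6 in tumour 1. Tumour 1 also had the highest summed level of macrophage markers (401 CPM, against 51.1 to 201 CPM in the other 5) and of adipocyte markers (21.7 CPM, against 0.57 CPM or less). Skeletal-muscle markers, with 8 of 10 passing the test and all 8 higher, summed to 2974, 3044 and 758 CPM in the Ivl:BRAFV600E-SOX2LSL tumours and to 3.14, 3.51 and 13.1 CPM in the Ivl:BRAFV600E tumours, where Ckm and Myh4 were at or near 0. In bulk RNA, fewer cells of a type and less RNA per cell cannot be told apart.

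None of the 10 genes passed the test between the genotypes (edgeR's quasi-likelihood test, 3 against 3 tumours, Benjamini-Hochberg adjusted p below 0.05 over all genes tested), where 3.9% of all genes did (2.39% higher and 1.51% lower). At an unadjusted p below 0.05 the count was 2 of 10, Cdkn1c and Rb1, against 25.7% of all genes (14.5% higher and 11.2% lower). DESeq2 called 1 of the 10, Cdkn1c, against 18.2% of the 20046 genes to which it gave an adjusted p, and limma called 0, against 8.77%. Of the other settings, edgeR without a filter on low counts called 1, again Cdkn1c, against 5.24% of all genes. The count was 0 of 10 with the size factors of DESeq2 (3.79% of all genes), upper-quartile scaling (3.99%), the stricter filter filterByExpr (7.37%), sex as a covariate (0.933%), the skeletal-muscle markers removed (3.86%) and the 10 genes with the most counts removed (3.89%). Leaving out 1 tumour gave 1 of 10 without Ivl:BRAFV600E-SOX2LSL tumour 1 (6.69% of all genes). It gave 0 of 10 without tumour 2 (0.84%) or 3 (1.71%) of that group and without Ivl:BRAFV600E tumour 1 (0.0918%), 2 (0.207%) or 3 (0.738%). The groups did not overlap for 4 of 10 genes, with Cdkn1c and Trp53 higher and Cdkn1a and Rb1 lower in the Ivl:BRAFV600E-SOX2LSL tumours, and the same held for 34.2% of all genes (18.2% higher and 16.0% lower). The median log2 fold change of the 10 genes was 0.02, beside 0.04 over all genes.

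**Figure D1:**
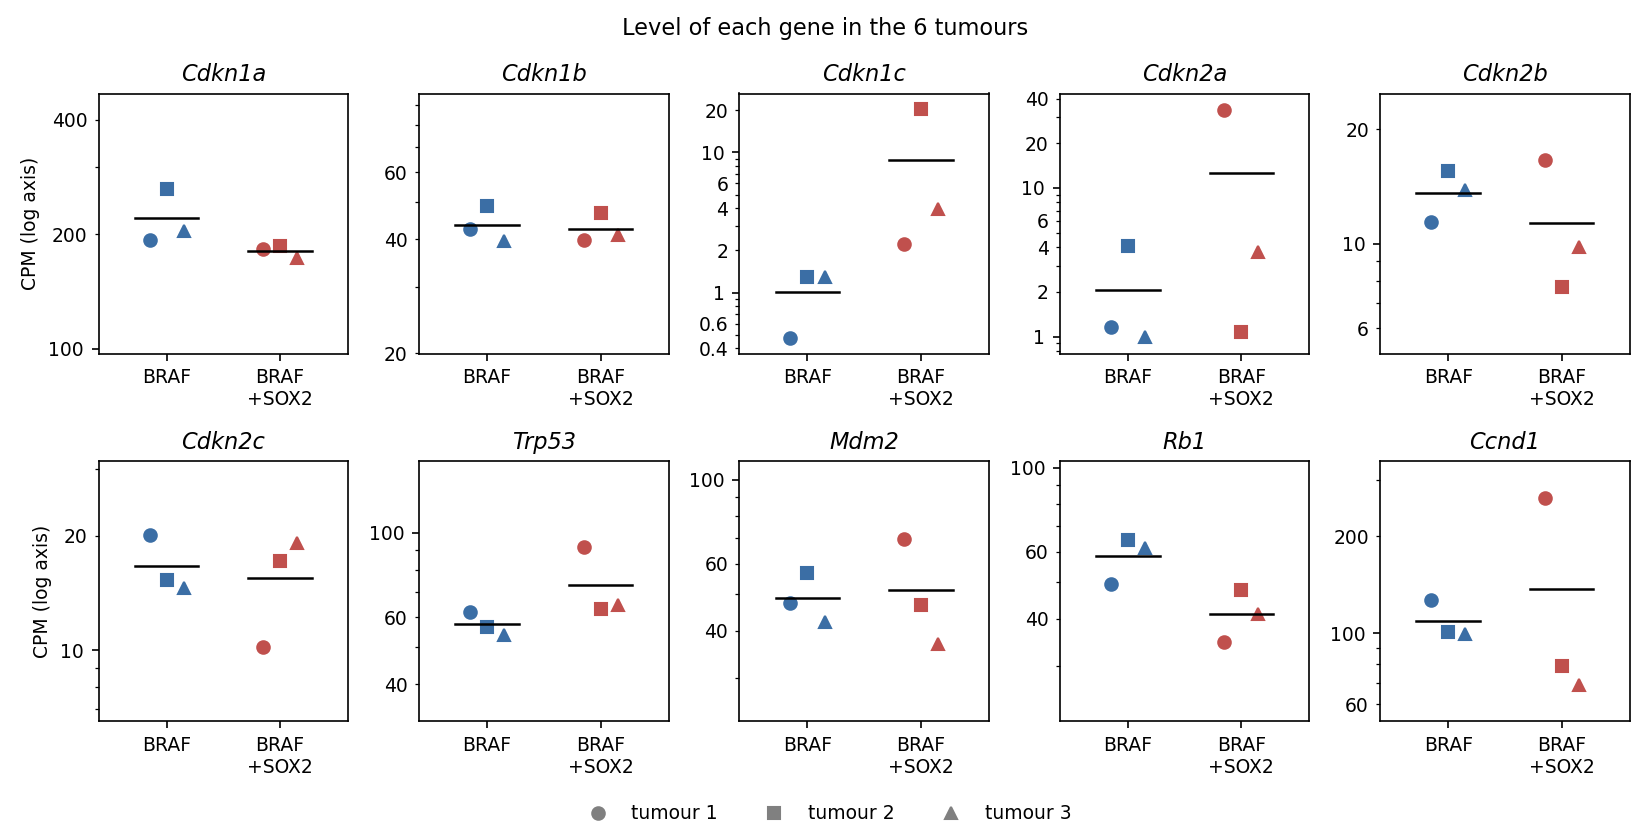
CPM (log axis, with its own range in each panel) of each of the 10 genes in the 3 Ivl:BRAFV600E (BRAF) and 3 Ivl:BRAFV600E-SOX2LSL (BRAF+SOX2) tumours. Symbols mark the tumour and horizontal lines the group mean. The highest value of a group is at least 2 times its lowest for 4 of the 10 genes in the Ivl:BRAFV600E-SOX2LSL tumours (Cdkn1c, Cdkn2a, Cdkn2b and Ccnd1) and for 2 of 10 in the Ivl:BRAFV600E tumours (Cdkn1c and Cdkn2a). Cdkn2a and Ccnd1 are highest in Ivl:BRAFV600E-SOX2LSL tumour 1 and Cdkn1c in tumour 2.

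Among the CIP/KIP inhibitors, Cdkn1a was the most abundant. It was at 193, 263 and 204 CPM in the Ivl:BRAFV600E tumours and at 183, 186 and 173 CPM in the Ivl:BRAFV600E-SOX2LSL tumours. All 3 values of the second group lay below the first, within a narrow band. The means were 220 ± 37.8 and 181 ± 7.08 CPM (SD, n = 3 each), the log2 fold change was −0.29 with a standard error of 0.15, and the difference did not pass the test in edgeR (adjusted p = 0.28). The highest value, in Ivl:BRAFV600E tumour 2, was 1.33 times the mean of the other 2 of its group, and without that tumour the log2 fold change was −0.14 (adjusted p = 0.612 in edgeR). The Cdkn1a exons share 273 bases with AC167363.2, a gene on the opposite strand, and whether the counting used strand is not given in the sources used here. AC167363.2 itself had at most 65 counts in a tumour.

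Cdkn1b, the inhibitor that restrains CDK2 in quiescent cells, lies on chromosome 6 at 134920401 to 134925513 and was the most even gene of the set across all 6 tumours. It was at 42.4, 48.8 and 39.6 CPM in the Ivl:BRAFV600E and at 39.8, 47.0 and 40.9 CPM in the Ivl:BRAFV600E-SOX2LSL tumours. The groups overlapped fully, with a log2 fold change of −0.03 ± 0.14 (SE, edgeR adjusted p = 0.898).

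Cdkn1c, an imprinted inhibitor expressed from the maternal allele, lies on chromosome 7 at 143458339 to 143461050 and had the largest fold change of the 10. It was at 0.477, 1.29 and 1.28 CPM in the Ivl:BRAFV600E tumours, from 14, 28 and 27 counts, and at 2.21, 20.2 and 3.97 CPM in the Ivl:BRAFV600E-SOX2LSL tumours, from 79, 623 and 110 counts. All 3 values of the second group were higher than any of the first, and tumour 2 was 6.53 times the mean of the other 2. The log2 fold change was 3.12 with a standard error of 0.89, and it missed the threshold in edgeR (adjusted p = 0.0921). DESeq2 called it at a log2 fold change of 3.11 (adjusted p = 0.00151), and so did edgeR without a filter on low counts (3.13, adjusted p = 0.0468). Without Ivl:BRAFV600E-SOX2LSL tumour 2 the log2 fold change was 1.61, and without tumour 1 it was 3.59 and passed in edgeR (adjusted p = 0.0333), where 6.69% of all genes passed. The tumour with the most Cdkn1c also had the highest summed skeletal-muscle markers, although tumour 1 was close to it in those markers and had the least Cdkn1c of its group. The exons of Cdkn1c share 625 bases with Gm44732 on the opposite strand, which had 0 counts. The part of muscle RNA in the Cdkn1c level was not tested.

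The INK4 inhibitors showed no common direction. Cdkn2a was at 1.16, 4.06 and 0.998 CPM in the Ivl:BRAFV600E tumours, from 34, 88 and 21 counts, and at 33.3, 1.07 and 3.68 CPM in the Ivl:BRAFV600E-SOX2LSL tumours, from 1189, 33 and 102 counts. A single tumour, Ivl:BRAFV600E-SOX2LSL tumour 1, stood at 14.0 times the mean of the other 2 of its group, and those lay within the range of the Ivl:BRAFV600E tumours. The log2 fold change of 2.62 ± 1.22 (SE) did not pass in edgeR (adjusted p = 0.228), and without tumour 1 it was 0.20 (adjusted p = 0.899). limma, which weights each library by its fit, gave 0.71. Because 1 row holds both starts, the counts do not separate p16 from p19Arf.

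Cdkn2b, which encodes p15 and lies next to Cdkn2a on chromosome 4 at 89306299 to 89311039, was at 11.4, 15.6 and 13.8 CPM in the Ivl:BRAFV600E and at 16.6, 7.68 and 9.79 CPM in the Ivl:BRAFV600E-SOX2LSL tumours. Tumour 1 was again the highest of its group, at 1.91 times the mean of the other 2, and the groups overlapped (log2 fold change −0.26 ± 0.30, SE, edgeR adjusted p = 0.628). The Cdkn2b value rested on single tumours, at −0.64 without tumour 1 (adjusted p = 0.122) and −0.040 without tumour 2 (adjusted p = 0.947) in edgeR, and limma gave −0.51 (adjusted p = 0.205). Cdkn2c, which encodes p18 and lies apart on chromosome 4 at 109660876 to 109667189, went the other way in that tumour. It was at 20.1, 15.3 and 14.6 CPM in the Ivl:BRAFV600E and at 10.2, 17.2 and 19.1 CPM in the Ivl:BRAFV600E-SOX2LSL tumours, where tumour 1 was at 0.562 of the mean of the other 2 (log2 fold change −0.10 ± 0.26, SE, edgeR adjusted p = 0.838). Tumour 1, with the most Cdkn2a and Cdkn2b and the least Cdkn2c, is also the one with the lowest levels of the differentiation keratins Krt1 and Krt10 and the highest summed macrophage and adipocyte markers, and the part of these in its INK4 levels was not tested. Cdkn2d (p19Ink4d), an INK4 inhibitor outside the 10, was at 3.44, 6.33 and 4.47 CPM in the Ivl:BRAFV600E and at 6.74, 9.36 and 8.96 CPM in the Ivl:BRAFV600E-SOX2LSL tumours, without overlap (log2 fold change 0.82, edgeR adjusted p = 0.127). limma called Cdkn2d (adjusted p = 0.0389), and the adjusted p lay between 0.0521 and 0.222 in the other 8 settings.

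Levels of different genes were compared as CPM per kb of annotated exon. In the Ivl:BRAFV600E tumours the order was Cdkn1a (62.0 ± 10.6, SD, n = 3), Ccnd1 (23.2 ± 3.26) and Trp53 (14.2 ± 1.03), each apart from the next. Cdkn2b, Rb1, Mdm2 and Cdkn1b followed between 9.78 and 9.57 with overlapping ranges, and then, each apart from the one before, Cdkn2c (6.20), Cdkn2a (1.77) and Cdkn1c (0.499). In the Ivl:BRAFV600E-SOX2LSL tumours Cdkn1a (50.8 ± 1.99), Ccnd1 (29.2 ± 23.3) and Trp53 (18.1 ± 3.96) came first by their means again. There every neighbouring pair of the 10 genes overlapped, and Cdkn2a moved from rank 9 to rank 4 by its mean (10.8 ± 15.3) through tumour 1. The overlap of Cdkn1a and Ccnd1 also came from tumour 1, where they were at 51.5 and 56.0. In tumours 2 and 3 Cdkn1a was at 52.4 and 48.6 and Ccnd1 at 16.8 and 14.7. Of the summed CPM per kb of the 6 CDK inhibitors, Cdkn1a made up 67.5%, 70.05% and 69.2% in the Ivl:BRAFV600E tumours and 48.8%, 61.3% and 63.3% in the Ivl:BRAFV600E-SOX2LSL tumours. The other shares differed by tumour. Cdkn2a made up 26.9% in tumour 1, against 3.28% or less in every Ivl:BRAFV600E tumour, and Cdkn1c made up 11.6% in tumour 2, against 0.76% or less.

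**Figure D2:**
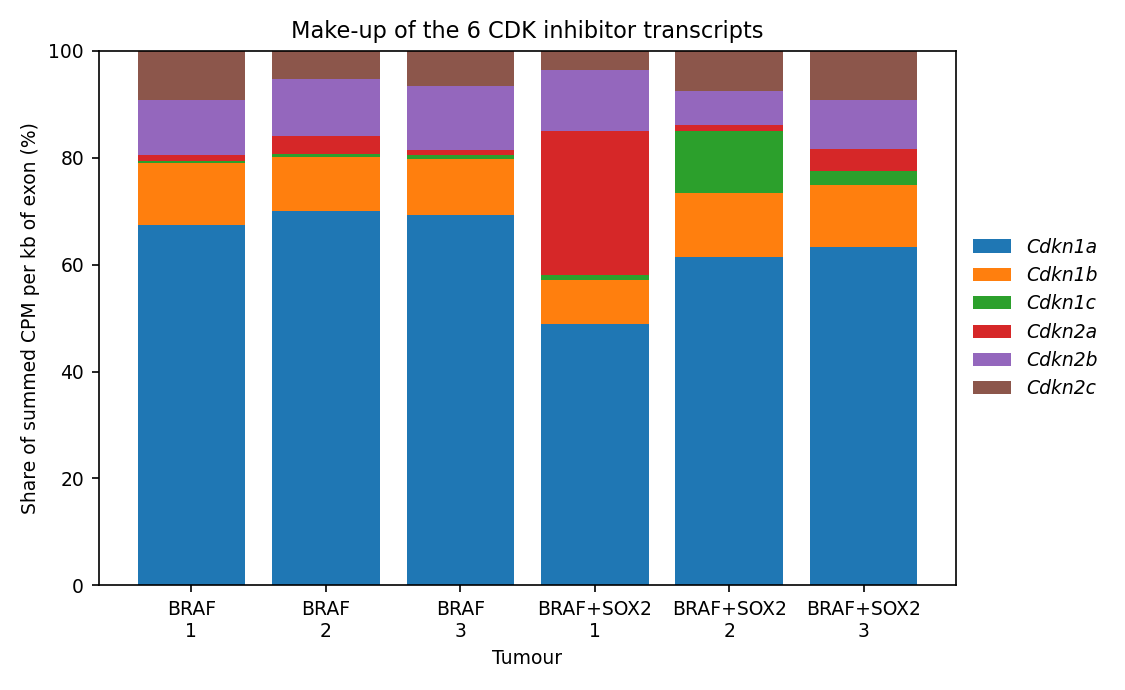
Share of each of the 6 CDK inhibitors in their summed CPM per kb of exon (%), 1 bar per tumour. Cdkn1a holds 67.5% or more in each Ivl:BRAFV600E (BRAF) tumour, and among the Ivl:BRAFV600E-SOX2LSL (BRAF+SOX2) tumours Cdkn2a reaches 26.9% in tumour 1 and Cdkn1c 11.6% in tumour 2.

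Trp53 encodes p53, the transcription factor that induces Cdkn1a after DNA damage and oncogenic stress, and lies on chromosome 11 at 69580359 to 69591873. It was at 62.1, 56.5 and 53.9 CPM in the Ivl:BRAFV600E tumours and at 91.5, 63.0 and 64.6 CPM in the Ivl:BRAFV600E-SOX2LSL tumours. The groups did not overlap, but tumours 2 and 3 of the second group were close to the highest value of the first. The log2 fold change was 0.35 ± 0.17 (SE, edgeR adjusted p = 0.256), 0.15 without Ivl:BRAFV600E-SOX2LSL tumour 1 and 0.19 in limma. Mdm2, which is both a p53 target and its main inhibitor, lies on chromosome 10 at 117688875 to 117710758. It was at 47.2, 56.9 and 42.2 CPM and at 69.9, 46.6 and 37.0 CPM in the respective groups, which overlapped (log2 fold change 0.07 ± 0.24, SE, edgeR adjusted p = 0.883). Its close relative Mdm4 was at 51.1, 43.8 and 52.5 CPM and at 52.8, 57.7 and 55.5 CPM (log2 fold change 0.17, edgeR adjusted p = 0.407).

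Of 26 p53 target genes, 2 rose and 0 fell in edgeR, where 2.39% of all genes rose and 1.51% fell, and the median log2 fold change of the list was 0.07. The list includes the members Cdkn1a and Mdm2. Eda2r, a receptor of the TNF receptor family, was at 3.001, 1.66 and 2.90 CPM in the Ivl:BRAFV600E and at 18.6, 11.05 and 8.20 CPM in the Ivl:BRAFV600E-SOX2LSL tumours (log2 fold change 2.32 ± 0.38, SE, edgeR adjusted p = 0.0287). Xpc, which recognises DNA lesions in nucleotide excision repair, was at 7.09, 8.04 and 9.36 CPM and at 17.5, 13.2 and 16.1 CPM (0.93 ± 0.19, edgeR adjusted p = 0.0454). Bbc3, which encodes the pro-apoptotic PUMA, came next at 1.36, 1.43 and 1.62 CPM and 3.80, 2.62 and 2.89 CPM without passing (1.08 ± 0.27, edgeR adjusted p = 0.0699). In leave-one-out fits, Eda2r passed in 2 of 6 and Xpc in 0 of 6. Skeletal-muscle and macrophage markers were higher in the same contrast, and their part in the levels of these targets was not tested. DESeq2 called 3 higher and 4 lower of the 26, against 10.5% and 7.76% of all genes with that tool, and limma 2 higher and 3 lower, against 4.8% and 3.97%, so the one-sidedness of the edgeR calls did not hold with either tool. Of 12 regulators and relatives of p53, 0 passed in edgeR, with 2 at an unadjusted p below 0.05 (25.7% of all genes), Trp53bp1 (log2 fold change 0.40) and Usp7 (−0.40), followed by Chek2 (0.37). DESeq2 and limma also called 0 of these.

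**Figure D3:**
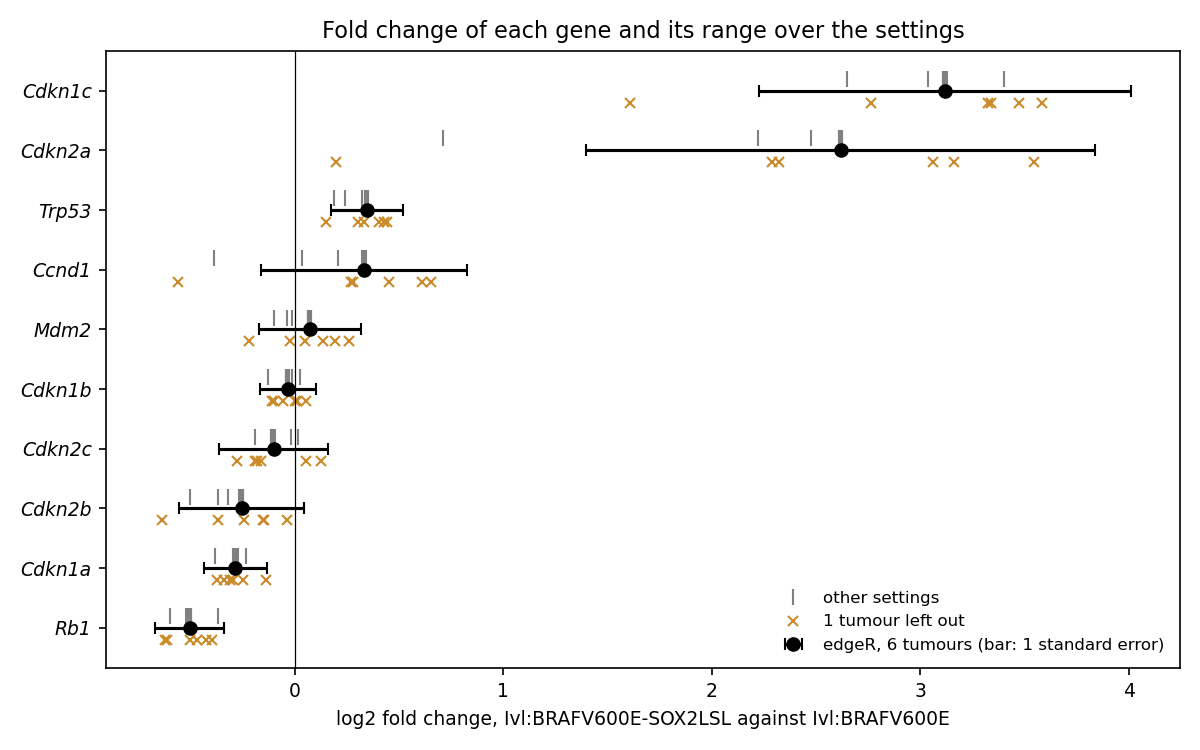
Log2 fold change of each of the 10 genes, Ivl:BRAFV600E-SOX2LSL against Ivl:BRAFV600E. Black points give edgeR with 6 tumours (bar, 1 standard error), grey marks the 9 other settings and crosses the 6 leave-one-out fits. Rb1 and Cdkn1a stay below 0 and Cdkn1c, Cdkn2a and Trp53 above 0 in all of these fits, Cdkn2b is below 0 but reaches −0.040 without Ivl:BRAFV600E-SOX2LSL tumour 2, while Ccnd1, Mdm2, Cdkn1b and Cdkn2c lie on both sides.

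At the pocket protein step, Rb1, on chromosome 14 at 73183673 to 73325822, was lower in value in all 3 Ivl:BRAFV600E-SOX2LSL tumours. It was at 49.4, 64.6 and 61.3 CPM in the Ivl:BRAFV600E and at 34.7, 47.6 and 41.2 CPM in the Ivl:BRAFV600E-SOX2LSL tumours. The ranges were separated by a narrow gap, with means of 58.4 ± 7.99 and 41.2 ± 6.46 CPM (SD, n = 3 each). The log2 fold change of −0.50 ± 0.17 (SE) had an unadjusted p of 0.0183 in edgeR and did not pass (adjusted p = 0.121), and it lay between −0.60 and −0.37 in the other settings, with adjusted p between 0.0687 and 0.229. Rb1 shares 896 exon bases with Rcbtb2 and Lpar6 on the opposite strand and these rows held at most 675 and 764 counts. Of 13 pocket proteins and E2F factors, 0 passed in edgeR, with 5 at an unadjusted p below 0.05 (25.7% of all genes) and a median log2 fold change of 0.03, while DESeq2 and limma each called 1, E2f8, lower (7.76% and 3.97% of all genes). Rb1 is itself in this list and is 1 of the 5. E2f8, an atypical E2F that represses cell cycle genes, was at 67.7, 60.7 and 48.5 CPM and at 25.5, 34.1 and 40.1 CPM, without overlap (log2 fold change −0.83 ± 0.20, SE, edgeR adjusted p = 0.0682). Rbl2, which encodes the RB relative p130, was at 20.9, 20.9 and 22.1 CPM and at 30.5, 28.5 and 25.6 CPM (0.40 ± 0.13, edgeR adjusted p = 0.115), opposite in sign to Rb1.

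Ccnd1 encodes cyclin D1, the D cyclin induced by MAPK signalling, and lies on chromosome 7 at 144929931 to 144939925. It was at 127, 101 and 99.6 CPM in the Ivl:BRAFV600E tumours and at 264, 79.2 and 69.2 CPM in the Ivl:BRAFV600E-SOX2LSL tumours. Tumour 1 of the second group was the highest of all 6, at 3.56 times the mean of the other 2, which were the lowest of all 6. The log2 fold change of 0.33 ± 0.49 (SE, edgeR adjusted p = 0.707) turned to −0.56 without tumour 1 (adjusted p = 0.0715). The exons of Ccnd1 share 1100 bases with LTO1 on the opposite strand, which had at most 334 counts. The same tumour thus held the highest values of Ccnd1, Cdkn2a, Cdkn2b, Mdm2 and Trp53 and the lowest of Rb1 and Cdkn2c.

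The other D cyclins, Ccnd2 and Ccnd3, were higher in every Ivl:BRAFV600E-SOX2LSL tumour. Ccnd2 was at 48.4, 27.9 and 57.2 CPM in the Ivl:BRAFV600E tumours and at 251, 126 and 152 CPM in the Ivl:BRAFV600E-SOX2LSL tumours, and rose by a log2 fold change of 1.99 ± 0.35 (SE, edgeR adjusted p = 0.0322). Ccnd3 was at 24.9, 26.6 and 25.7 CPM and at 36.1, 42.7 and 40.1 CPM, and rose by 0.63 ± 0.12 (edgeR adjusted p = 0.043). In leave-one-out fits each passed in 1 of 6, and in the 9 other settings they passed in 8 and 7. These were the 2 of 17 cyclins and CDKs that passed, with none lower and a list median of 0.22, where 2.39% of all genes rose and 1.51% fell. The 17 include the member Ccnd1. Of the kinases that D cyclins activate, Cdk4 was at 84.1, 92.2 and 81.6 CPM and at 139, 92.8 and 104 CPM (log2 fold change 0.38, edgeR adjusted p = 0.217). Cdk6 was at 363, 301 and 333 CPM and at 355, 282 and 292 CPM (−0.10, edgeR adjusted p = 0.707). Markers of other cells moved with the same contrast as Ccnd2 and Ccnd3. Of 5 macrophage markers, 1 rose in edgeR, 4 in DESeq2 and 2 in limma, and all 5 had an unadjusted p below 0.05 in edgeR with a log2 fold change above 0. Of 4 neutrophil markers, 0 rose in edgeR, 3 in DESeq2 and 2 in limma. The part of these and of the muscle markers was not tested.

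**Figure D4:**
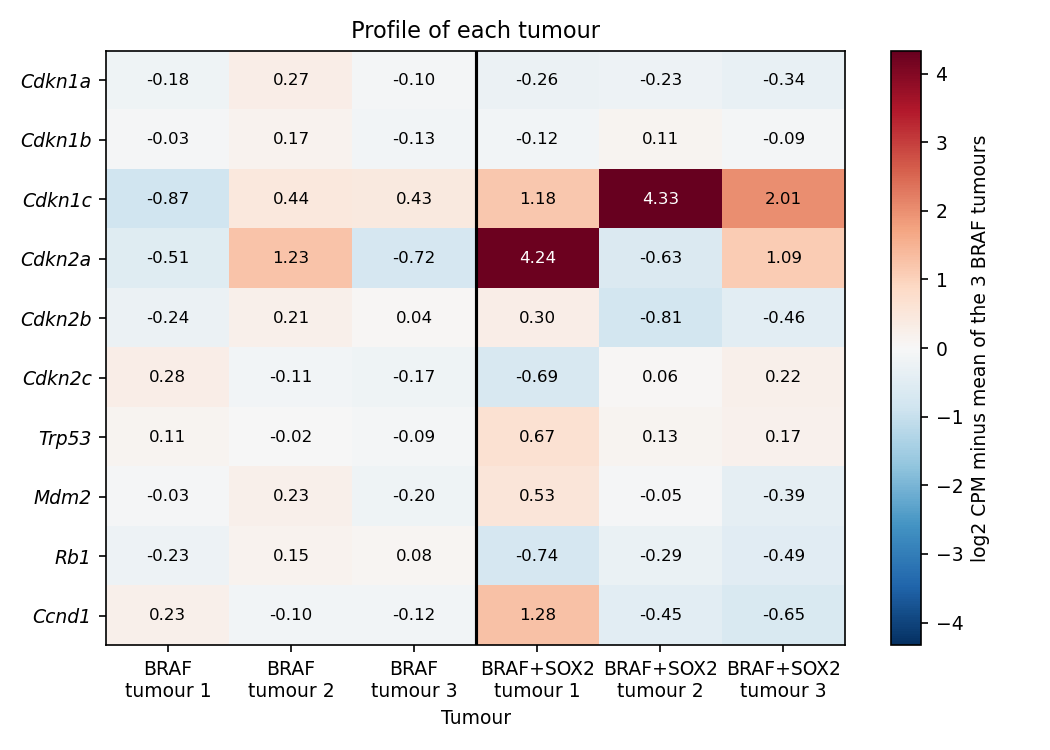
Log2 CPM of each of the 10 genes in each tumour minus the mean of the 3 Ivl:BRAFV600E (BRAF) tumours. Red is higher and blue lower. Ivl:BRAFV600E-SOX2LSL (BRAF+SOX2) tumour 1 reaches 4.24 for Cdkn2a and 1.28 for Ccnd1, tumour 2 reaches 4.33 for Cdkn1c, and tumours 2 and 3 lie below 0 for Ccnd1.

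Among 18 genes that control the INK4 locus or p27 (Polycomb members, T-box and ETS factors, FOXO factors and the SKP2 ligase), 0 rose and 1 fell in edgeR and limma (2.39% and 1.51% of all genes in edgeR, 4.8% and 3.97% in limma), and 1 rose and 2 fell in DESeq2 (10.5% and 7.76%). Foxo3, a FOXO factor that induces Cdkn1b, was at 282, 272 and 245 CPM in the Ivl:BRAFV600E and at 146, 172 and 167 CPM in the Ivl:BRAFV600E-SOX2LSL tumours (log2 fold change −0.72 ± 0.13, SE, edgeR adjusted p = 0.0357), and it passed in 1 of 6 leave-one-out fits. Tbx2, a repressor of the INK4 locus, was at 2.32, 1.52 and 2.00 CPM in the Ivl:BRAFV600E tumours and at 1.96, 21.6 and 29.1 CPM in the Ivl:BRAFV600E-SOX2LSL tumours (3.17, edgeR adjusted p = 0.0815). Within the second group, Tbx2 was thus low in tumour 1, where Cdkn2a was high, and high in tumours 2 and 3, where Cdkn2a was low, while in the Ivl:BRAFV600E tumours both genes were low. Tbx3, the other T-box repressor of the list, did not follow this order, at 34.7, 81.4 and 47.3 CPM in the Ivl:BRAFV600E and at 10.8, 30.2 and 5.45 CPM in the Ivl:BRAFV600E-SOX2LSL tumours (−1.81, edgeR adjusted p = 0.13), with its lowest value in tumour 3. Tbx3 was named after its values were seen, and no relation between these genes was tested. DESeq2 called Tbx2 higher and Tbx3 lower. Tbx2 passed in 2 of the 9 other settings and in 1 of 6 leave-one-out fits. Ets1, an activator of p16 transcription, was at 28.1, 35.01 and 30.8 CPM and at 77.2, 40.7 and 44.2 CPM (0.79, edgeR adjusted p = 0.117).

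The proliferation genes gave no call in edgeR. Of 24, 0 passed in edgeR, and 2 had an unadjusted p below 0.05, both higher, against 25.7% of all genes, while DESeq2 called 1 (Mcm7, higher) and limma 0 (10.5% and 4.8% of all genes were called higher). A log2 fold change above 0 was found for 21 of 24, against 52.8% of all genes, with a median of 0.21. Mki67 was at 505, 425 and 323 CPM in the Ivl:BRAFV600E and at 302, 395 and 373 CPM in the Ivl:BRAFV600E-SOX2LSL tumours (−0.23, edgeR adjusted p = 0.508). Mcm7, a subunit of the replicative helicase, was at 48.1, 43.7 and 39.9 CPM and at 62.6, 62.8 and 57.8 CPM (0.48, edgeR adjusted p = 0.0717). Cenpf (0.33) and Plk1 (0.46), which act in mitosis, followed with adjusted p of 0.192 and 0.198 in edgeR.

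The list of the senescence-associated secretory phenotype holds 26 genes, of which Glb1 and Lmnb1 are markers of senescence that are not secreted. In edgeR 3 of the 26 rose and 1 fell, against 2.39% and 1.51% of all genes, 19 had a log2 fold change above 0, against 52.8% of all genes, and the median was 0.83. Il1a, the cytokine that starts the secretory programme, was at 16.3, 20.1 and 12.5 CPM in the Ivl:BRAFV600E and at 53.3, 66.1 and 52.6 CPM in the Ivl:BRAFV600E-SOX2LSL tumours (1.81 ± 0.20, SE, edgeR adjusted p = 0.0129). Plau, which encodes the protease urokinase, was at 40.7, 38.3 and 50.6 CPM and at 98.4, 87.0 and 86.1 CPM (1.07 ± 0.15, edgeR adjusted p = 0.0206). Timp1, an inhibitor of metalloproteinases, was at 2.46, 1.52 and 4.75 CPM and at 26.0, 14.4 and 10.3 CPM (2.54 ± 0.50, edgeR adjusted p = 0.0434). Ereg, which encodes the EGFR ligand epiregulin, fell from 150, 108 and 84.3 CPM to 42.4, 29.9 and 43.3 CPM (−1.57 ± 0.25, edgeR adjusted p = 0.0272). In leave-one-out fits, Il1a passed in 5 of 6, Plau in 3, Ereg in 2 and Timp1 in 1. DESeq2 called 7 of the list higher and 1 lower, against 10.5% and 7.76% of all genes with that tool. limma called 5 and 1, against 4.8% and 3.97%, and without Glb1 and Lmnb1 the counts were 6 and 1 of 24 in DESeq2 and 4 and 1 of 24 in limma. Lmnb1, which encodes the nuclear lamin B1 that is known to be lost in senescence, was at 54.1, 37.8 and 42.7 CPM in the Ivl:BRAFV600E and at 74.5, 68.9 and 72.3 CPM in the Ivl:BRAFV600E-SOX2LSL tumours (0.68 ± 0.15, edgeR adjusted p = 0.0571). It was named after its values were seen, and DESeq2 (adjusted p = 0.00645) and limma (adjusted p = 0.0431) called it higher. Lmnb1 passed in 4 of the 9 other settings and in 0 of 6 leave-one-out fits. Fibroblasts, macrophages and neutrophils also express many genes of this list, and their markers had median log2 fold changes of 1.08 (0 of 6 passing in edgeR), 1.91 (1 of 5) and 1.83 (0 of 4). At an unadjusted p below 0.05 in edgeR, 1 of 6 fibroblast, 5 of 5 macrophage and 3 of 4 neutrophil markers were higher, against 14.5% of all genes. DESeq2 called 1, 4 and 3 of them higher and limma 1, 2 and 2 (10.5% and 4.8% of all genes were called higher), the fibroblast call being Pdgfra in both. Macrophage markers summed to 51.1, 60.7 and 109.8 CPM in the Ivl:BRAFV600E and to 401, 201 and 109.1 CPM in the Ivl:BRAFV600E-SOX2LSL tumours, so that tumour 3 of the second group overlapped with the first. Neutrophil markers summed to 15.01, 19.4 and 22.9 CPM in the Ivl:BRAFV600E and to 47.1, 38.1 and 58.7 CPM in the Ivl:BRAFV600E-SOX2LSL tumours, with fibroblast sums of 2074, 726 and 5028 CPM in the Ivl:BRAFV600E tumours and 8177, 3891 and 4702 CPM in the Ivl:BRAFV600E-SOX2LSL tumours. Their part in the list was not tested.

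**Figure D5:**
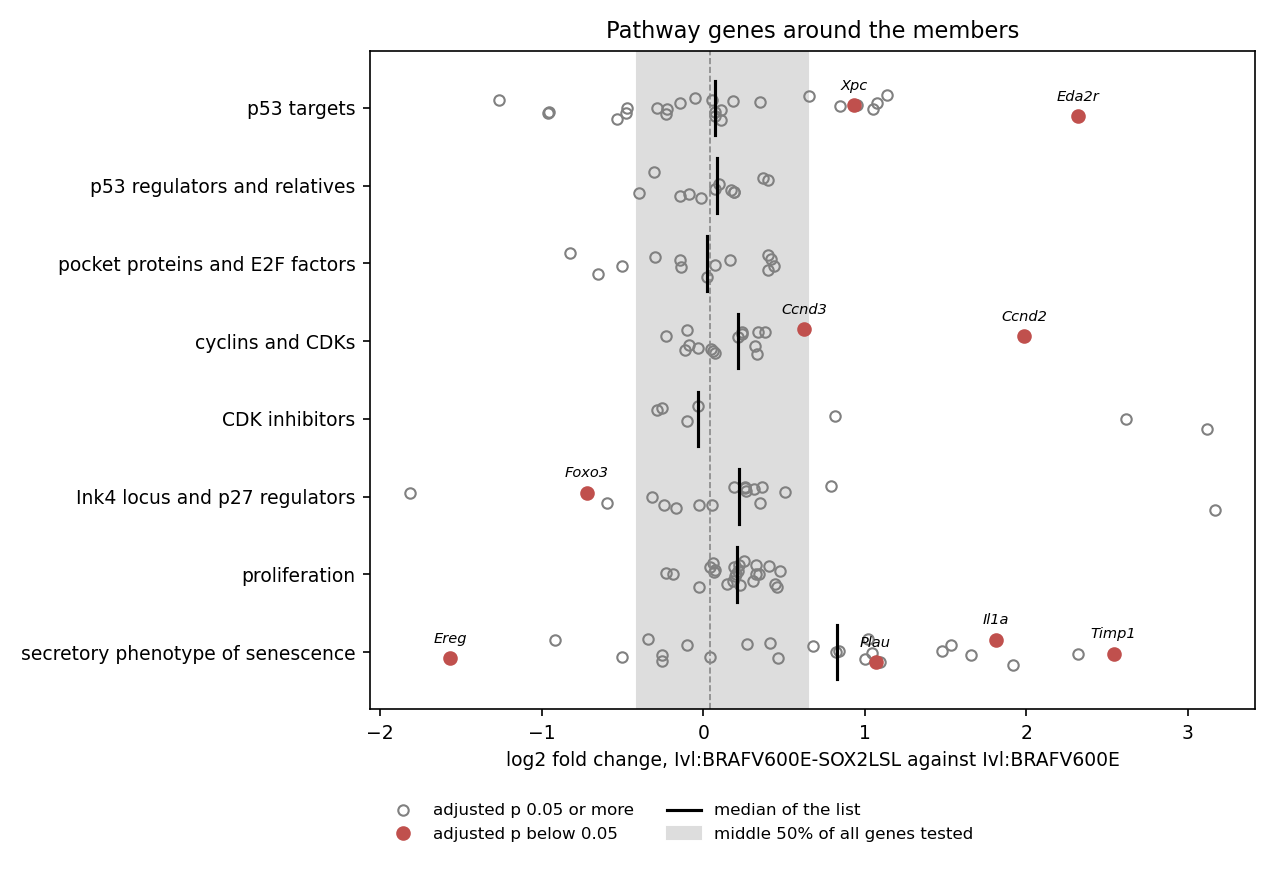
Log2 fold change, Ivl:BRAFV600E-SOX2LSL against Ivl:BRAFV600E, of every gene in 8 pathway lists around the 10 genes. Some of the lists also hold members of the 10. Red points passed the edgeR test, open points did not, vertical lines mark the list medians, and the grey band spans the middle 50% of all genes tested, from −0.41 to 0.65. The genes that passed are Eda2r, Xpc, Ccnd2, Ccnd3, Foxo3, Il1a, Plau, Timp1 and Ereg.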

How the data were processed

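RNA of the tumours was sequenced as paired-end reads of 150 bp from 200 ng of total RNA. The submitters' processing notes name FastQC 0.11.8, Trim Galore, HISAT2 2.1.0 and featureCounts of Subread 1.6.3 with GRCm38, and the authors deposited raw read counts per gene, with no normalisation. Columns were assigned to genotypes by mouse names in the study's source data. 1 column matched no listed mouse and was not used. Nothing states that replicates were pooled.

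A gene entered the test when 1 tumour or more held 5 reads of it, TMM factors corrected the library sizes, and genotypes were tested against each other in edgeR 4.0.16 (quasi-likelihood test, Benjamini-Hochberg adjustment, R 4.3.3). The standard error is the log2 fold change divided by the square root of the F statistic. CPM per kb used the union of GENCODE M21 exons. The scripts were tested on simulated data. Alternatives were DESeq2 1.42.0, limma 3.58.1 (voom with sample weights), other scalings and filters, sex as a covariate, marker or top genes removed, and each tumour left out.

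Named genes were the 10 members and, from each pathway list, every gene that passed (up to 6) and, where fewer than 3 passed, those with the smallest p up to 3, with Cdkn2d, Mki67, Mdm4, Cdk4, Cdk6, Sox2 and EGFP. Tbx3, Lmnb1, Glb1 and the neighbouring genes were named after their values were seen. Single genes of the cell type marker lists also fall outside this rule and were named with their values known. Members, lists and rules were chosen with earlier results of these data known. Each tumour comes from a separate mouse.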

Additional observations from a re-analysis of the deposited data

How the results depend on the processing

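No paired analysis was possible because the columns of the count table carry no replicate number. Cdkn1a, Cdkn1c, Cdkn2a, Cdkn2b, Trp53 and Rb1 kept their direction in all 9 other settings and all 6 leave-one-out fits. The −0.040 of Cdkn2b without Ivl:BRAFV600E-SOX2LSL tumour 2 has no firm sign. Only Cdkn1c crossed the threshold, with DESeq2 (3.11), with no filter on low counts (3.13) and without Ivl:BRAFV600E-SOX2LSL tumour 1. With limma the log2 fold change was 0.026 for Cdkn1b, −0.10 for Mdm2 and −0.39 for Ccnd1. With sex as a covariate it was 0.013 for Cdkn2c and −0.013 for Mdm2, and with upper-quartile scaling −0.039 for Mdm2. The cause was not tested. Leaving out 1 tumour gave log2 fold changes from −0.37 to −0.14 for Cdkn1a, from −0.11 to 0.053 for Cdkn1b, from 1.61 to 3.59 for Cdkn1c, from 0.20 to 3.55 for Cdkn2a, from −0.64 to −0.040 for Cdkn2b, from −0.28 to 0.12 for Cdkn2c, from 0.15 to 0.44 for Trp53, from −0.22 to 0.26 for Mdm2, from −0.62 to −0.40 for Rb1 and from −0.56 to 0.65 for Ccnd1. The median over all genes was 0.04 with TMM, 0.03 with the size factors of DESeq2 and −0.06 with upper-quartile scaling, so differences below 0.1 have no firm sign.

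Over all genes, 585 were called higher and 369 lower. The counts were 2098 and 1555 with DESeq2, 1172 and 970 with limma, 1091 and 668 with no filter, 161 and 67 with sex as a covariate, and 736 and 560 with filterByExpr. Without 1 tumour the counts ran from 12 to 845 higher and from 10 to 730 lower, the lowest without Ivl:BRAFV600E tumour 1 and the highest without Ivl:BRAFV600E-SOX2LSL tumour 1. The number of tumours, 3 a group, limits every statement, and depth was lowest for Cdkn1c and Cdkn2a, which rest on 14 to 28 and 21 to 88 counts in the Ivl:BRAFV600E tumours.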

Other observations

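The genes within 250 kb of each member were listed after the members' values had been seen. Ivl:BRAFV600E-SOX2LSL tumour 1 held 3.56 times the Ccnd1 of the other 2 tumours of its group, while the 4 tested neighbours of Ccnd1 (Ano1, Fgf3, LTO1 and Tpcn2) were at 0.623 to 1.19 times. Around Cdkn2a, which stood at 14.0 times, Cdkn2b was at 1.91 times and Mtap, which encodes an enzyme of methionine salvage, at 1.72 times.

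Near Cdkn1c, Phlda2, a growth-restraining gene of the same imprinted cluster, was at 13.6, 15.3 and 11.97 CPM in the Ivl:BRAFV600E and at 6.57, 5.34 and 4.33 CPM in the Ivl:BRAFV600E-SOX2LSL tumours (log2 fold change −1.33 ± 0.21, SE, edgeR adjusted p = 0.0281). It was the only 1 of the 9 tested neighbours of Cdkn1c to pass, and its fold change had the opposite sign to that of Cdkn1c. Near Cdkn2c, 1 of 4 neighbours passed, Rnf11, a ubiquitin ligase gene, at 363, 316 and 300 CPM and at 158, 190 and 148 CPM (−0.98 ± 0.15, edgeR adjusted p = 0.0266). These were the 2 that passed of 80 neighbours of the 10 genes, or 2.5%, beside 3.9% of all genes. The 80 include the members Cdkn2a and Cdkn2b, each a neighbour of the other.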
